A study of Mus musculus with 6 samples.

Results

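The genes described here are 10 readout genes of canonical Wnt signalling, chosen by symbol and all found among the 24421 genes of the count table. They are Ctnnb1, which encodes β-catenin; the receptor genes Fzd4 and Fzd6; the 4 genes of the TCF/LEF transcription factors, Tcf7, Lef1, Tcf7l1 and Tcf7l2; and the feedback inhibitor genes Axin2, Nkd1 and Apcdd1. RNA-seq had been performed on 6 libraries, 1 per condition, to compare mouse endothelial cells with changed Dot1l to their controls. Dot1l encodes a methyltransferase of histone H3. Cont BECs and cKO BECs are blood endothelial cells sorted from the skin of embryos at E15.5 that were homozygous for the floxed Dot1l allele (Dot1l 2f/2f). Embryos for the control had no Tie2-Cre and those for cKO carried it, and Tie2 drives this Cre in blood cells as well as in endothelium. The sort took cells negative for macrophage surface proteins and for Lyve1 and, in the study's scheme, positive for the endothelial protein Pecam1, and the RNA of 2 to 3 embryos was pooled for a library. The other 4 libraries came from cultured cells, each from 2 to 3 flasks. Cont BECs and OE-BECs are an embryonic yolk sac blood endothelial line, and Cont LECs and OE-LECs are labelled embryonic dermal lymphatic endothelial cells. OE cells had received lentivirus carrying the activator dCas9-VP64 with guides to the Dot1l promoter and EGFP, and were sorted for GFP, while their controls had received the empty lentivirus.

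In canonical Wnt signalling, a Wnt ligand binds a Frizzled receptor together with Lrp5 or Lrp6, the complex that degrades β-catenin is inhibited, and β-catenin enters the nucleus and acts with TCF/LEF factors. Axin2, Nkd1, Apcdd1, Lef1 and Tcf7 are widely used as readouts because the pathway raises their transcription in many tissues. In endothelium, Fzd4 with Tspan12 receives norrin and supports retinal and brain vessels, and β-catenin also sits at cell junctions with VE-cadherin, so the level of Ctnnb1 does not by itself report signalling. DOT1L and its partner MLLT10 have been linked to transcription of TCF and β-catenin target genes in some systems and found dispensable for it in others.

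The start regions of 2 members are shown because they are the promoter of the classic feedback target Axin2 and that of Ctnnb1 itself. Each run is the 250 bases before the RefSeq transcription start in GRCm38.p6, on the + strand, with CG dinucleotides in capitals.
Axin2 (chr11:108920099-108920348): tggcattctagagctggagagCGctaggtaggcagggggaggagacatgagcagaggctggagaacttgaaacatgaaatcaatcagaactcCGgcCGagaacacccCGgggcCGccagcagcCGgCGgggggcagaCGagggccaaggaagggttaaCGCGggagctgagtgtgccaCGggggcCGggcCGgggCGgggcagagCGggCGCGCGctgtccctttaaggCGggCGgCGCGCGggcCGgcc
Ctnnb1 (chr9:120933150-120933399): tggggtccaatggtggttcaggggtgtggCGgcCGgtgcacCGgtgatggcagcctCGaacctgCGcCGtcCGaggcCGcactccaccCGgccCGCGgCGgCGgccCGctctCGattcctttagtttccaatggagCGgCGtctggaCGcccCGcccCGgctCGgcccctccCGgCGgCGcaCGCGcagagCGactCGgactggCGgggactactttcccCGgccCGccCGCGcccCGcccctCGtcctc
The Axin2 run held 24 CG dinucleotides at a GC content of 69.2%, and the Ctnnb1 run held 35 at 74.8%. The RefSeq windows of 300 bases around start sites covered 8 of the 10 genes with 14 windows. The TCF/LEF motif letters CTTTGAT or CTTTGAA, on either strand, were in 0 of these 14 windows and in 8.65% of 32851 windows of all genes. This says only that these letters are not in these windows.

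Dot1l itself was counted first, as a check of the labels. The skin Cont library held 762 Dot1l reads and the library labelled cKO held 944, a log2 ratio of normalized counts of -0.07 with an interval of -0.21 to 0.07. Dot1l reads were therefore not lower in the library labelled cKO, though a count over the whole gene does not show whether a part of it was deleted. The study also checked the knockout by RT-qPCR (n = 1) and reports that it bore out the knockout, a measure that is not analysed here. In culture, OE-BECs held 4208 against 1972 in their control, 2.78-fold higher (log2 ratio 1.48, interval 1.40 to 1.55). OE-LECs held 6720 against 2490, 2.30-fold higher (log2 ratio 1.20, interval 1.13 to 1.27). Here and below, normalized counts come from median of ratios scaling of the pair of libraries, and each interval is an exact 95% interval for the reads of the pair. With 1 library per condition there is no replicate error, so no p is given and a difference is one between libraries; the reads carry no molecular identifiers and can be copies of 1 molecule, and the intervals and floors cover counting error only.

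Library totals were 8863349 to 31032461 reads, and 3 reads, taken as the floor, correspond to 0.0967 to 0.338 counts per 1000000 reads (CPM). Reads of Rn45s, a ribosomal RNA gene, made up 5.91% of the cultured Cont BEC library, 10.9% of the OE-BEC library and at most 0.570% of any other. All 12 pan-endothelial marker genes were above the floor in every library. Their summed level was 6492 CPM in skin Cont BECs and 4202 CPM in the library labelled cKO, with 7 of the 12 past 1.5-fold lower. In the same pair the 9 macrophage genes summed to 3605 and 5646 CPM and the 12 keratinocyte genes to 203 and 310 CPM, while 9 fibroblast genes summed to 2556 and 1895 CPM and 8 pericyte genes to 854 and 689 CPM. The lymphatic, T cell, Schwann cell and melanocyte, and muscle lists summed to 2788, 31.9, 69.3 and 101 CPM in skin Cont BECs and to 3246, 38.0, 97.8 and 94.7 CPM in the library labelled cKO. The cells sorted as Lyve1-negative held 9105 and 19959 Lyve1 reads. Reads of Prox1, the defining lymphatic transcription factor, numbered 1304 and 883 in the skin pair, control first. They numbered 0 in every cultured library, those labelled as lymphatic included. Lyve1 had 52184 and 60898 reads in the libraries labelled as lymphatic and 10680 and 14786 in the cultured BEC pair. Of the 7 lymphatic genes, 2 were above the floor in each library labelled as lymphatic, Lyve1 and Flt4. Flt4 was at 107 and 130 CPM in these libraries and at 144 and 98.3 CPM in the cultured BEC pair, control first. In bulk RNA, fewer cells of a type and less RNA per cell cannot be told apart.

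**Figure D1:**
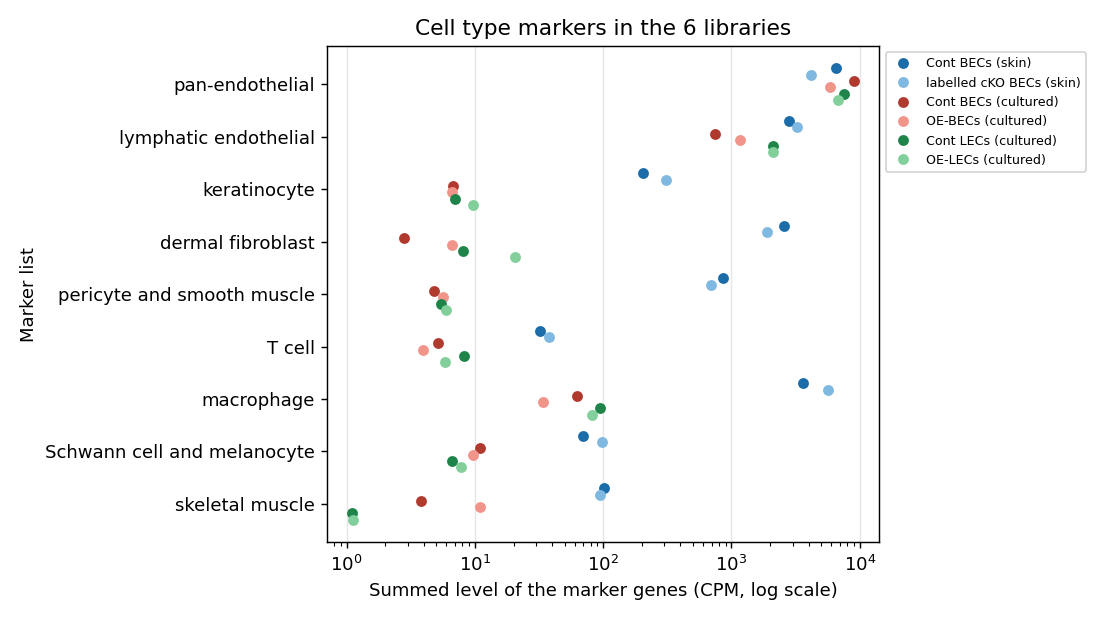
Summed CPM (log axis) of 9 lists of cell type markers, with 1 point per library and colour for the condition. Macrophage, fibroblast, keratinocyte and pericyte genes reach 203 to 5646 CPM in the skin libraries, and at most 93.9 CPM in the 4 cultured libraries.

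Ctnnb1 had the highest level per length of the 10 genes in all 6 libraries. It lies on chr9:120929216-120960507, + strand (GRCm38). Its level was 1251 CPM in skin Cont BECs and 1047 CPM in the library labelled cKO, then, control first, 1684 and 669 CPM in the cultured BEC pair and 1660 and 1135 CPM in the LEC pair. Per length, the range was 129 to 324 reads per kilobase of exon per 1000000 reads (RPKM). The OE-BECs had the lowest Ctnnb1 level and the control cultured libraries the highest, with intervals that overlap between Cont BECs (1665 to 1703 CPM) and Cont LECs (1644 to 1675 CPM). Exons of Ulk4, on the opposite strand, and of Mir7090 overlap those of Ctnnb1, and the sources used here name the counting option (-S) but do not say how strand was treated.

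The 2 Frizzled receptor genes were next in length-scaled level in 5 of the 6 libraries, OE-BECs being the exception, where Tcf7l2 (4.997 RPKM) stood above Fzd6 (3.63 RPKM). Fzd4 (chr7:89404355-89413134, + strand) encodes the norrin receptor. It was at 163 and 92.1 CPM in the skin pair, 323 and 168 CPM in the cultured BEC pair and 153 and 121 CPM in the LEC pair, control first. Cultured Cont BECs were thus highest and each changed library was lower than its own control, while the intervals of OE-BECs and skin Cont BECs overlap, as do those of skin Cont BECs and Cont LECs. Fzd6 (chr15:39006034-39038188, + strand), a receptor also known from planar polarity, was at 127, 93.6, 44.6, 17.5, 30.2 and 21.0 CPM in the same order of libraries. Its 2 highest levels were both in skin. Per length, Fzd6 (26.4 RPKM) and Fzd4 (24.3 RPKM) were close in skin Cont BECs, whereas in cultured Cont BECs Fzd4 was at 48.0 RPKM and Fzd6 at 9.25 RPKM.

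The TCF/LEF genes had different makeups in skin and in culture. Tcf7l2 (chr19:55741820-55933654, + strand), a factor that with β-catenin activates and without it represses targets, was at 46.3 and 34.6 CPM in the skin pair, 56.4 and 43.9 CPM in the cultured BEC pair and 12.8 and 11.7 CPM in the LEC pair. The 2 libraries labelled as lymphatic were the lowest and their intervals overlap each other. Tcf7l1 (chr6:72626378-72789254, - strand), mainly a repressor, was at 15.46, 13.2, 11.5, 10.3, 6.05 and 4.54 CPM in that order, and neighbouring intervals overlap except between OE-BECs and Cont LECs. Exons of Gm15401, on the opposite strand, overlap those of Tcf7l1. Tcf7 (chr11:52252371-52283014, - strand), a factor best known from T cells, had 139 and 117 reads in the skin libraries and 10, 13, 23 and 19 reads in the 4 cultured libraries. Lef1 (chr3:131110471-131224356, + strand), both a factor and a target of the pathway, had 133 and 154 reads in skin and 12, 0, 5 and 2 reads in the cultured libraries. Tcf7 and Lef1 were therefore counted mainly in skin, at 10.6 to 15.7 CPM and 13.9 to 15.01 CPM, against at most 0.933 CPM and 0.679 CPM in culture.

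The 4 factor genes summed to 16.9 and 12.9 RPKM in the skin pair, 9.65 and 7.97 RPKM in the cultured BEC pair and 3.35 and 2.73 RPKM in the LEC pair. In skin Cont BECs, Tcf7 made up 35.4% of this sum, Tcf7l2 31.2%, Tcf7l1 23.3% and Lef1 10.1%. In cultured Cont BECs, Tcf7l2 made up 66.7% and Tcf7 with Lef1 only 2.23% and 0.800%. Cont LECs split the sum between Tcf7l1 (46.0%) and Tcf7l2 (43.3%). The skin libraries also hold RNA of other cell types, as the marker sums above show, and the part of those cells in the Tcf7 and Lef1 reads was not tested. The sort was against CD45, whose gene Ptprc had 1206 reads in the skin control and 2340 in the library labelled cKO. Of the 7 T cell marker genes, Cd3e had 39 and 1 reads in this pair and Cd3g 19 and 8. Cd4 had 69 and 239, Il7r 81 and 86, and Lck 71 and 82, while Cd3d and Cd8a had at most 4.

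**Figure D2:**
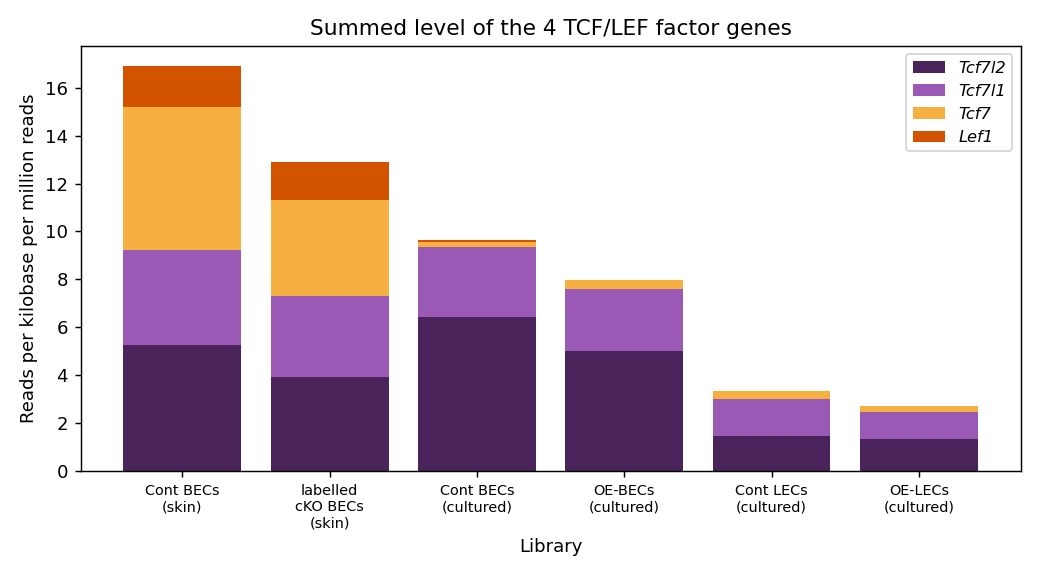
Stacked RPKM (bars from 0) of Tcf7l2, Tcf7l1, Tcf7 and Lef1 in each of the 6 libraries. The sum is highest in skin Cont BECs (16.9 RPKM) and lowest in OE-LECs (2.73 RPKM), and the Tcf7 and Lef1 segments are visible mainly in the 2 skin bars.

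The feedback inhibitor genes divided into 2 that were counted almost only in skin and 1 that was counted everywhere. Axin2 (chr11:108920349-108950783, + strand), a scaffold of the degradation complex and a target of the pathway, had 120 reads (13.5 CPM) in skin Cont BECs and 209 (18.9 CPM) in the library labelled cKO. The cultured libraries had 5 and 2 Axin2 reads (BEC pair) and 10 and 9 (LEC pair), at most 0.383 CPM. Nkd1 (chr8:88521354-88594884, + strand), which antagonises Dishevelled, had 101 and 136 reads in skin. It had 0 reads in all 4 cultured libraries, which allows up to 0.170 and 0.215 CPM in the BEC pair and up to 0.115 and 0.0967 CPM in the LEC pair. Apcdd1 (chr18:62922231-62961179, + strand) encodes a membrane inhibitor of the pathway. It was at 43.9 and 30.3 CPM in the skin pair, 36.4 and 21.2 CPM in the cultured BEC pair and 42.0 and 26.4 CPM in the LEC pair. The 3 control libraries had the 3 highest Apcdd1 levels, with intervals that overlap between skin Cont BECs and Cont LECs.

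**Figure D3:**
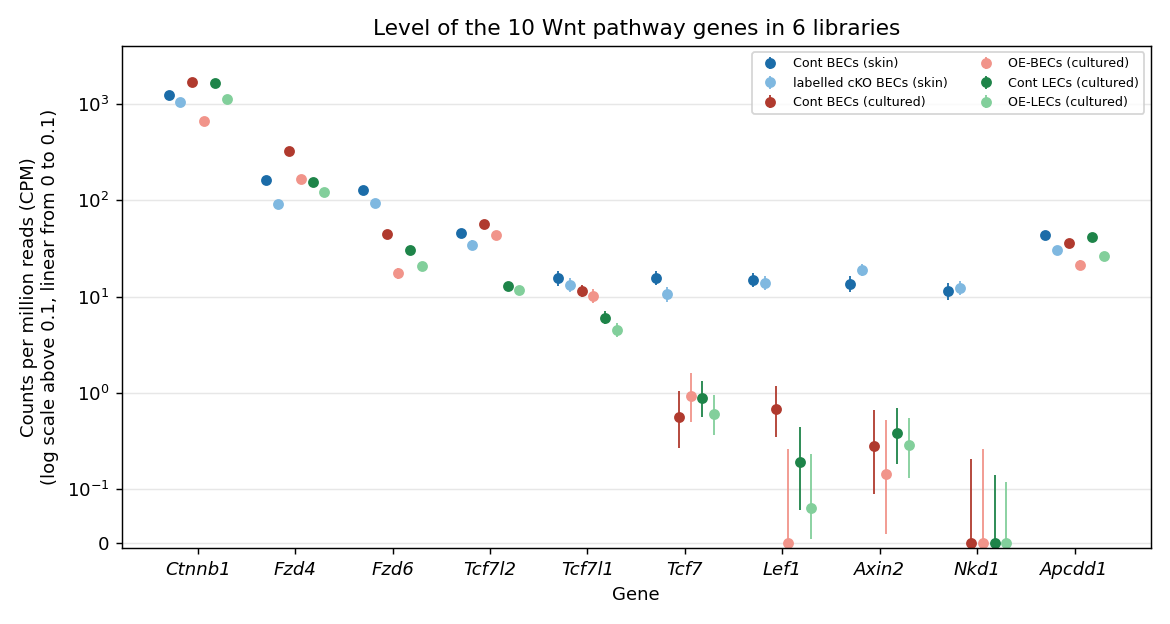
CPM of the 10 genes in each of the 6 libraries (axis logarithmic above 0.1 and linear from 0 to 0.1), with exact 95% intervals for counting error. Ctnnb1 lies above all others in every library, and Axin2, Lef1, Tcf7 and Nkd1 lie at 10.6 CPM or above in skin and under 1 CPM in culture.

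Among genes with a similar profile over the 6 libraries, the 5 nearest to Axin2 of 13265 genes were Gfra1, Asprv1, Sfrp2, Vgll3 and Ifi30, at distances of 0.329 to 0.354. The 4 nearest to Lef1 were Sepp1, Sgsm1, Fzd1 and Adora2a, at distances of 0.259 to 0.495. The distance is Euclidean, between log2(CPM + 0.5) values centred per gene. Gfra1, for example, had 73 and 119 reads in skin and 0, 0, 1 and 1 in culture. Fzd1 had 143 and 137 reads in skin and 13, 2, 3 and 2 in culture. These genes were picked for nearness over the same 6 libraries, so a shared split between skin and culture follows from the choice.

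In skin, Fzd4, Tcf7 and Apcdd1 were lower in the library labelled cKO than in Cont BECs, and for Tcf7 and Apcdd1 the direction turned when the pair was scaled to endothelial marker genes. Past the study's rule, a difference of more than 3-fold with a higher normalized count of at least 5, were 0 of the 10, against 5.94% of the 15554 genes that reached 10 reads over both libraries. Past a second rule, more than 1.5-fold with an interval off 0, were 3 of the 10, Fzd4, Tcf7 and Apcdd1, all lower. That rule was passed in the lower direction by 8.24% of all genes and in either direction by 20.2%. The median log2 ratio was -0.39 over the 10 genes and 0.0026 over all those genes.

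Fzd4 differed most, at 1447 and 1021 reads and 1.84-fold lower (log2 ratio -0.88, interval -0.998 to -0.76). Tcf7 was 1.54-fold lower (-0.63, -0.99 to -0.26) and Apcdd1 1.504-fold lower (-0.59, -0.80 to -0.37), so both stood close to the 1.5-fold limit. Fzd6, Tcf7l2 and Ctnnb1 had log2 ratios of -0.50 (-0.62 to -0.37), -0.47 (-0.68 to -0.27) and -0.31 (-0.35 to -0.28), with intervals below 0 but folds under the limit. For Tcf7l1, Lef1 and Nkd1 the intervals held 0. Axin2 was the only one of the 10 with an interval above 0, at a log2 ratio of 0.42 (0.09 to 0.76).

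Marker genes of the same libraries also had ratios away from 0. The 12 pan-endothelial genes had a median log2 ratio of -0.70 and the 9 macrophage genes one of 0.61, with 9 of 9 higher. The median was -0.45 for fibroblast, -0.38 for pericyte and 0.37 for keratinocyte genes. For the lymphatic, T cell, Schwann cell and melanocyte, and muscle lists it was -0.22, -0.29, 0.16 and 0.08. When the pair was scaled to the median ratio of the 12 pan-endothelial genes instead, Tcf7 was at 0.08, Apcdd1 at 0.11 and Fzd4 at -0.18, and 2 of the 10 genes, Axin2 (1.12) and Nkd1 (0.75), were past 1.5-fold higher. Under total counts, 1 of the 10 was past the second rule in place of 3, and under TMM factors or size factors from all 6 libraries 2 were, Apcdd1 being then under 1.5-fold. Of the 8 genes with a log2 ratio below 0, only Fzd4 kept that sign on this scale, so the direction of the other 7 depended on which genes set it, and the part of cell makeup in it was not tested.

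In cultured BECs, Ctnnb1, both Frizzled genes and Apcdd1 were lower in OE-BECs than in Cont BECs, and no gene of the 10 was past either rule in the higher direction. At least 10 reads over the pair were found for 8 of the 10 genes. Of these 8, 1 (Lef1) was past the study's rule, here with a minimum of 3 normalized counts, and was lower. Of 13396 genes, 3.46% passed in that direction and 6.71% in either. Past the second rule were 5 of the 8, all lower, against 12.1% of all genes in the lower direction and 22.2% in either. The median log2 ratio was -0.82 over the 8 and -0.01 over all genes.

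Ctnnb1 went from 29784 reads in the control to 9327, 2.45-fold lower (log2 ratio -1.29, interval -1.33 to -1.26). Fzd6 had 788 and 244 reads, 2.48-fold lower (-1.31, -1.52 to -1.10). Fzd4 had 5709 and 2343 reads, 1.87-fold lower (-0.90, -0.97 to -0.83). Apcdd1, with 643 and 296 reads, was 1.67-fold lower (-0.74, -0.94 to -0.54), so a receptor pair, the shared effector gene and an inhibitor gene of the pathway lay on the same side. Lef1 went from 12 reads to 0 and was at least 2.13-fold lower, a bound from its interval that is under the 3-fold of the rule.

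The factor genes with more reads were nearer to equal. Tcf7l2 had 998 and 611 reads (log2 ratio -0.33, interval -0.47 to -0.18) and Tcf7l1 had 203 and 143 (-0.12, -0.44 to 0.19). Tcf7, with 10 and 13 reads, had a log2 ratio of 0.76 whose interval ran from -0.54 to 2.11. Axin2, with 5 and 2 reads, had a log2 ratio of -0.94 and an interval of -4.33 to 1.67, so a difference was not detectable at this depth. No ratio is given for Nkd1, with 0 reads in both. Of the pan-endothelial genes, 5 of 12 were past 1.5-fold lower in this pair and their median log2 ratio was -0.33, while keratinocyte, fibroblast and pericyte genes summed to at most 6.79 CPM per list in either library.

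In LECs, Apcdd1 was lower in OE-LECs than in Cont LECs and no other gene of the 10 was past a rule. All 8 genes with at least 10 reads had log2 ratios below 0, against 6401 of all 13028 genes. Past the study's rule were 0 of the 8, against 2.36% of all genes. Past the second rule was 1 of the 8, Apcdd1, lower, against 4.09% of all genes in the lower direction and 8.86% in either. Their median log2 ratio was -0.45, and that of all genes 0.0046. Of the 12 pan-endothelial genes in this pair, 10 had log2 ratios below 0 and 3 were past 1.5-fold lower, with Vwf also past 3-fold, and their median was -0.24.

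Apcdd1 went from 1097 reads in the control to 819, 1.57-fold lower (log2 ratio -0.65, interval -0.78 to -0.52). Ctnnb1, with 43346 and 35223 reads, was 1.44-fold lower (-0.53, -0.55 to -0.51). Fzd6 had a log2 ratio of -0.51 (-0.66 to -0.36), Tcf7l1 one of -0.40 (-0.73 to -0.06) and Fzd4 one of -0.32 (-0.39 to -0.26). The intervals of these 5 genes lay below 0, and 4 of the 5 folds were under 1.5. Those of Tcf7l2 (-0.11, -0.32 to 0.11), Tcf7 (-0.51, -1.46 to 0.43) and Axin2 (-0.38, -1.86 to 1.07) held 0. Lef1, with 5 and 2 reads, had -1.55 and an interval of -4.95 to 1.06.

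Set side by side, Ctnnb1 had log2 ratios of -0.31 in skin, -1.29 in cultured BECs and -0.53 in LECs. Fzd4 had -0.88, -0.90 and -0.32, Fzd6 -0.50, -1.31 and -0.51, and Apcdd1 -0.59, -0.74 and -0.65. These 4 genes were lower both in the library labelled cKO, where Dot1l reads were not lower, and in the OE libraries, except that in skin Ctnnb1 (0.39), Fzd6 (0.21) and Apcdd1 (0.11) were above 0 under the pan-endothelial scaling. Tcf7l2 (-0.47, -0.33 and -0.11) and Tcf7l1 (-0.29, -0.12 and -0.40) were below 0 in all 3 pairs as well. The interval of Tcf7l2 held 0 in LECs, and that of Tcf7l1 in skin and cultured BECs. Lef1 was also lower, at -0.17, from 12 reads to 0, and at -1.55, with intervals holding 0 in skin and LECs. On the pan-endothelial scale these were above 0 in skin (0.23, 0.42 and 0.54). The share of all genes lower in all 3 pairs was not counted. No difference between the comparisons was tested.

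**Figure D4:**
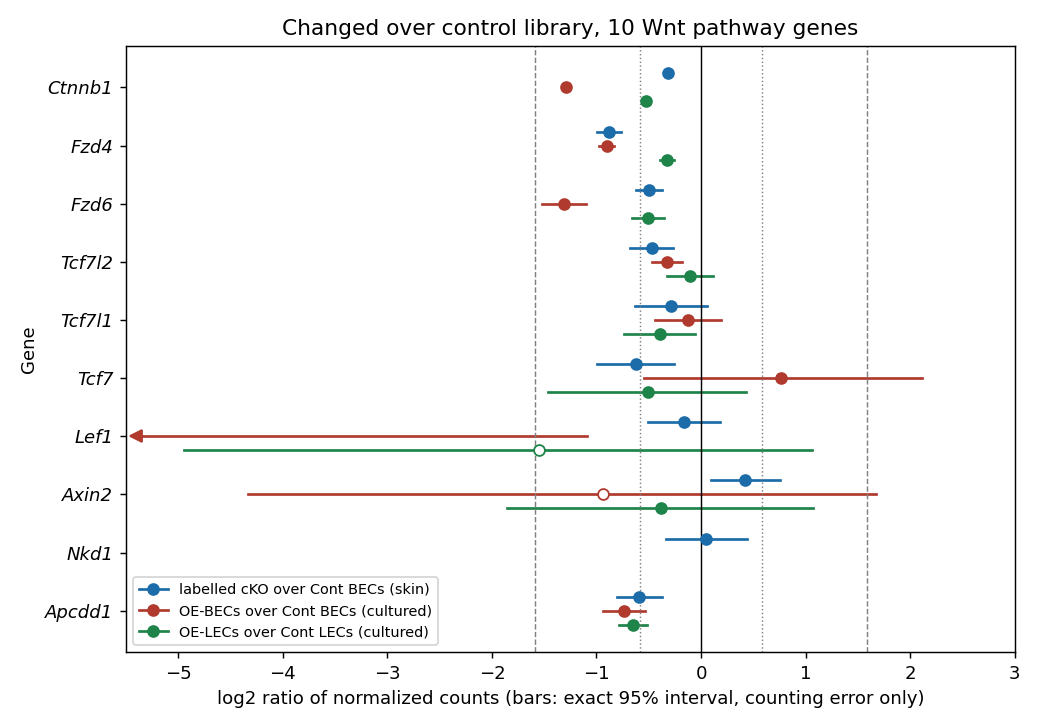
Log2 ratios of normalized counts, changed over control library, for the 10 genes in 3 comparisons, with exact 95% intervals for counting error; open points have under 10 reads over both libraries, an arrow marks 0 reads in the changed library, and dotted and dashed lines stand at 1.5-fold and 3-fold. Ctnnb1, Fzd4, Fzd6 and Apcdd1, and also Tcf7l2, Tcf7l1 and Lef1, lie left of 0 in all 3 comparisons, and Axin2 lies right of 0 in skin.

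The control libraries also differ from each other, and these comparisons share their libraries with those above. Cont LECs against Cont BECs in culture gave 2 of 9 genes past 3-fold, both lower in LECs, against 8.92% of 13300 genes in that direction. Past 1.5-fold lower with an interval off 0 were 5 of the 9, against 22.1%. Tcf7l2 was 4.76-fold lower (998 and 333 reads, log2 ratio -2.25, interval -2.43 to -2.07). Lef1 had 12 and 5 reads (-1.93, -3.79 to -0.32). Fzd4 was 2.27-fold lower (-1.18, -1.24 to -1.12) and Tcf7l1 2.04-fold lower (-1.03, -1.34 to -0.72), while Ctnnb1 was within 1.09-fold. Scaling by total counts moves all log2 ratios of this pair by 0.10.

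Cultured against skin Cont BECs gave 4 of 10 genes past 3-fold, all lower in culture, against 22.0% of 15020 genes in that direction. They were Axin2 (40.6-fold, log2 ratio -5.34, interval -6.99 to -4.08), Tcf7 (23.5-fold, -4.55, -5.65 to -3.63), Lef1 (18.7-fold, -4.23, -5.22 to -3.375) and Nkd1 (at least 45.4-fold). Fzd4 was 2.33-fold higher in culture and Ctnnb1 1.59-fold higher, and Fzd6 was 2.41-fold lower. Scaling by total counts shifts the log2 ratios of this pair by -0.24. Origin of the cells, culture, virus and cell makeup of the sort cannot be told apart in this pair.

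Another 100 genes of the pathway, in 11 lists by role, give the surroundings of the 10. Of 88 that reached 10 reads in the skin pair, 9 were past 1.5-fold higher and 8 lower, with a median log2 ratio of -0.14. Of 61 in cultured BECs, 4 were higher and 13 lower (median -0.02), and of 58 in LECs, 4 were higher and 7 lower (median 0.02). The shares of all genes past this rule in either direction were the 20.2%, 22.2% and 8.86% given above. Skin ratios of these genes, here and below, are on the main scale only. The pan-endothelial scaling would add 0.70 to each, so their direction in skin also depends on the scale.

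Past the study's rule was 1 of the 88 in skin (Sost, higher) and 1 of the 58 in LECs (Dkk2, higher). In cultured BECs 6 of the 61 passed, with Ccnd1 and Dkk3 (2 and 8 reads) higher and Dkk2, Cldn5, Fzd1 (13 and 2 reads) and Rspo3 (10 and 0 reads) lower. The background shares of that rule in either direction were 5.94%, 2.36% and 6.71%.

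Receptor partners of the 2 Frizzled proteins were mixed. Tspan12, which pairs with Fzd4 in norrin signalling, had 583 and 349 reads in skin (log2 ratio -1.12, interval -1.31 to -0.92) and 547 and 188 in cultured BECs (-1.16, -1.40 to -0.92). In LECs it had 453 and 600, with a log2 ratio of 0.17 and an interval that held 0. Tspan12 thus lay on the side of Fzd4 in the first 2 pairs but not in the third. Lrp6, a coreceptor, had 3100 and 5600 reads in skin (0.48, 0.41 to 0.54), 3551 and 2174 in cultured BECs (-0.33, -0.40 to -0.25) and 3090 and 3618 in LECs (0.00, -0.07 to 0.07). Lrp5 stayed within 1.11-fold in all 3 pairs.

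In both overexpression pairs, Dkk2 had the log2 ratio farthest from 0 among the 100 genes with a finite one. Dkk2, a secreted ligand of Lrp5 and Lrp6 that can inhibit the pathway, went from 295 reads in the cultured BEC control to 11, 20.6-fold lower (log2 ratio -4.36, interval -5.38 to -3.50). In LECs it had 10 and 77 reads, 6.56-fold higher (2.71, 1.76 to 3.83). In skin it had 254 and 495 reads (0.58, 0.36 to 0.81), so Dkk2 was lower in 1 changed library and higher in 2. Wnt5a, a ligand best known for signalling without β-catenin, had 772 and 219 reads in cultured BECs (-1.43, -1.66 to -1.22), and its intervals held 0 in skin and LECs. Frzb, a secreted Wnt antagonist, had 1366 and 757 reads in LECs (-1.08, -1.21 to -0.95). Sost, a secreted Lrp inhibitor, had 7 and 29 reads in skin (1.67, 0.45 to 3.11) and 0 in the cultured libraries.

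R-spondins bind Lgr receptors and raise Wnt signalling. Rspo3 had 43 and 160 reads in skin, 2.86-fold higher (log2 ratio 1.52, interval 1.02 to 2.04), 10 and 0 in cultured BECs (at least 1.72-fold lower, a bound from its interval) and 0 in both LEC libraries.

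Cytoplasmic and nuclear components were measured in all 3 pairs. Csnk1a1, a kinase of the degradation complex, had log2 ratios of -0.41 (-0.47 to -0.34) in skin, 0.15 (0.09 to 0.21) in cultured BECs and 0.01 (-0.03 to 0.06) in LECs. Of the 11 cytoplasmic genes, 1 was past 1.5-fold in skin, higher, 0 in cultured BECs and 1 in LECs, lower. Of the 10 nuclear cofactor genes, 1 was past 1.5-fold in skin, higher, and 2 in cultured BECs and 1 in LECs were past it lower. Of all genes, 20.2% in skin, 22.2% in cultured BECs and 8.86% in LECs passed this rule in either direction. Mllt10, which encodes the DOT1L partner named above, had log2 ratios of -0.09 (-0.20 to 0.02), -0.04 (-0.17 to 0.09) and -0.06 (-0.16 to 0.04). The interval of Mllt10 held 0 in each pair.

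Of the other genes described as targets, 5 reached the read minimum in cultured BECs. Log2 ratios were above 0 for 4 of the 5 and below 0 for 1, Sox17, with a median of 0.41. The intervals of 2 held 0, and 1 gene was past 1.5-fold higher and 1 lower. Ccnd1, a cyclin of the G1 phase, had 7472 and 21898 reads, 3.82-fold higher in OE-BECs (log2 ratio 1.93, interval 1.90 to 1.97). Sox17, an arterial transcription factor gene, had 2796 and 1100 reads (-0.96, -1.06 to -0.86). Cldn5, a tight junction gene of the barrier list, had 12735 and 2950 reads, 3.31-fold lower (-1.73, -1.79 to -1.67). In LECs, Ccnd1 had a log2 ratio of 0.46 (0.45 to 0.48), Sox17 one of -0.46 (-0.55 to -0.37) and Cldn5 one of -1.38 (-1.42 to -1.33). Ccnd1 was therefore higher and Sox17 and Cldn5 lower in both OE libraries. In skin, all 3 had folds under 1.5.

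Junction partners of β-catenin were also measured. Cdh5, which encodes VE-cadherin, had log2 ratios of -0.70 (-0.73 to -0.66) in skin, -0.76 (-0.78 to -0.74) in cultured BECs and -0.03 (-0.05 to -0.01) in LECs. It is 1 of the 12 pan-endothelial genes, whose median in skin was also -0.70. Ctnna1, which encodes α-catenin, had -0.32 (-0.37 to -0.26), -0.28 (-0.30 to -0.25) and -0.69 (-0.71 to -0.68). In cultured BECs the Ctnnb1 ratio of -1.29 was thus further from 0 than those of Cdh5 and Ctnna1. In LECs that of Ctnna1 was further from 0 than that of Ctnnb1 (-0.53). A larger fall in cultured BECs was not particular to Ctnnb1, since the pan-endothelial genes Vwf and Cldn5 were past 3-fold lower there.

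**Figure D5:**
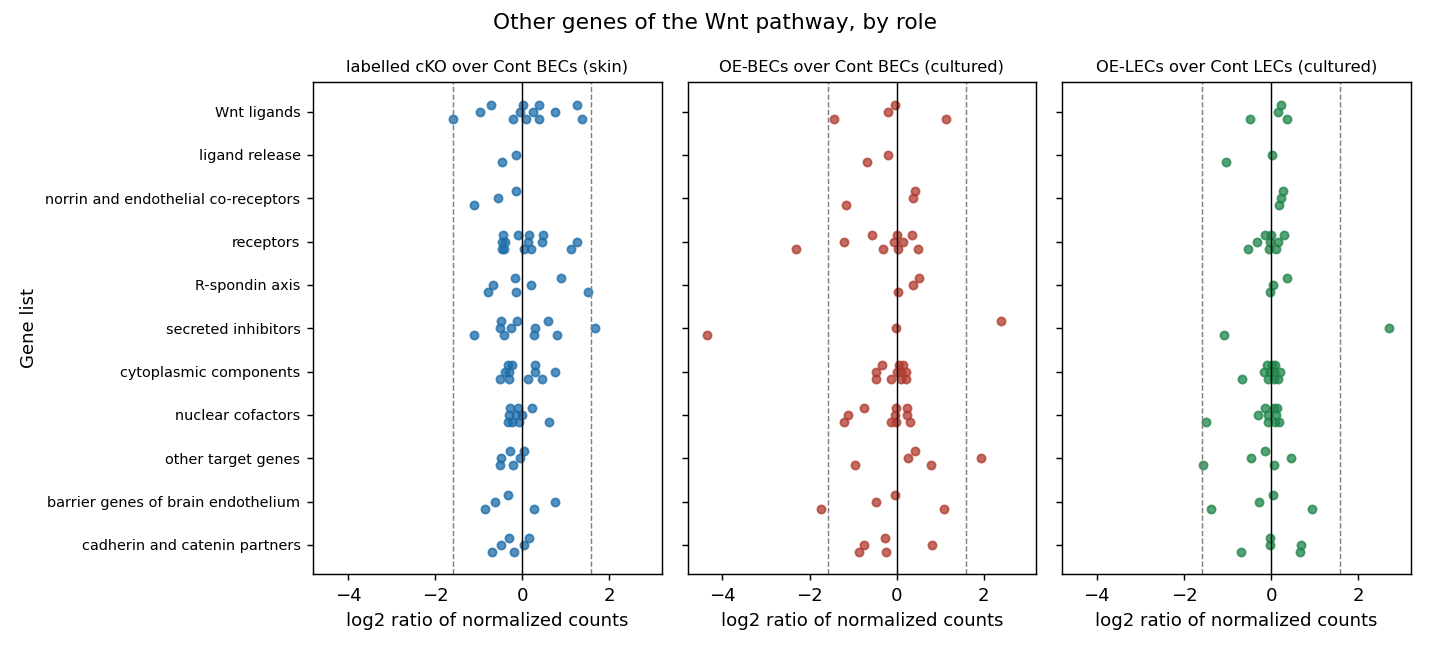
Log2 ratios of normalized counts for the other pathway genes that reached 10 reads over both libraries, by list (rows) and comparison (panels), with 1 point per gene and dashed lines at 3-fold; Rspo3 in cultured BECs (10 and 0 reads) has no finite ratio and is left out. Dkk2 is the farthest point left in cultured BECs (-4.36) and the farthest right in LECs (2.71).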

How the data were processed

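RNA-seq of 6 mouse libraries, 1 per condition, was analysed. Per the paper's methods, the authors trimmed the reads with skewer, aligned them to the UCSC mm10 genome with STAR and counted them per gene with VERSE (option -S), and deposited raw whole-number counts. The annotation and what the option means for strand are not given in the sources used here. The library labelled wild type in skin is called Cont, after the paper.

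From the deposited counts, CPM was computed per library total, RPKM with exon lengths of the GENCODE annotation of GRCm38, and normalized counts with size factors of DESeq2 1.42.0 in R 4.3.3 (median of ratios, each pair by itself). Log2 ratios have exact (Clopper-Pearson) 95% intervals on reads. Genes entered counts and backgrounds with at least 10 reads in the pair. A gene was called by the study's rule (more than 3-fold apart, with the larger normalized count reaching 5 for skin or 3 for OE) and by a second rule (more than 1.5-fold, interval off 0). The floor was 3 reads; a fold against 0 reads is a lower bound from the limit of its interval, no fold is given where both libraries are at or under the floor, and 1 to 3 reads give a ratio with its interval. Totals of 8863349 (skin Cont) to 31032461 (OE-LECs) reads set the precision.

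The genes named are the 10 readout genes, Dot1l, pathway genes past the study's rule with at least 20 reads in the higher library, the 3 genes of each list highest per length, defining markers, and the 5 nearest profiles to Axin2 and to Lef1 among genes with at least 100 reads, of which 1 is not reported here; Jup, Dkk3, Fzd1, Mir7090, Ulk4 and Gm15401 were named after their values or positions were seen. The 10 genes, the pathway lists and the 9 marker lists were chosen with earlier results of these data known. One list gene, Tle5, was matched by its older symbol Aes. Sequences and start windows are from RefSeq on GRCm38.p6. Alternatives were total counts, TMM factors of edgeR 4.0.16, size factors from all 6 libraries, a pseudocount of 1, no filter or at least 50 reads, and totals without Rn45s. Scaling to 12 pan-endothelial genes was added after the data were seen and was done for the skin pair only. Python 3.11.15, numpy 2.4.6, scipy 1.17.1, pandas 2.3.3 and matplotlib 3.10.9 were used, and the steps were tested on simulated data.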

Additional observations from a re-analysis of the deposited data

Results flagged for a closer look

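Of the 10 readout genes and the 100 other pathway genes, 2 lay past the second rule in opposite directions in the 2 overexpression pairs, and neither is one of the 10. Dkk2 had a log2 ratio of -4.36 in OE-BECs over Cont BECs (295 and 11 reads) and of 2.71 in OE-LECs over Cont LECs (10 and 77 reads). Jup, which encodes the junction protein plakoglobin, had -0.86 in OE-BECs (170 and 72 reads) and 0.66 in OE-LECs (433 and 805 reads). With 1 library per condition, the difference between the pairs was not tested for either gene.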

How the results depend on the processing

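Of 118 log2 ratios of the 10 genes recomputed under an alternative, 106 stayed within their counting interval and 12 did not. Of the 12, 10 were all the skin ratios under scaling to the 12 pan-endothelial genes, an alternative chosen after the data were seen, which adds 0.70 to each: 7 of the 8 ratios below 0 became positive, among them those of Tcf7 (0.0753) and Apcdd1 (0.1126), which had passed the second rule, and Fzd4 did not. Total counts moved Ctnnb1 past its narrow interval in skin (to -0.26) and in cultured BECs (to -1.33). Under total counts, 1 of the 10 genes in skin was past 1.5-fold in place of 3, and under TMM factors or size factors from all 6 libraries 2 were, since Apcdd1 (-0.58 in both) then missed the limit. With at least 50 reads in the pair, 0 genes were past the study's rule in cultured BECs in place of 1, since Lef1 has 12 reads. The other counts of genes past a rule stayed within 1.5 times the main count. No paired analysis was possible because each condition has 1 library, and for the same reason no library could be left out. Without Rn45s in the totals, 45 of 60 levels were at least 1 CPM in place of 44. Depth limits Axin2, Lef1, Tcf7 and Nkd1 in culture.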
